A study of Mus musculus with 8 samples.

Results

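The vacuolar proton pump (V-ATPase) and the genes that define intercalated cells of the collecting duct were followed in whole mouse kidney. The set comprised every gene symbol beginning with Atp6v, the accessory pump genes Atp6ap1 and Atp6ap2, and 13 intercalated cell genes. It was chosen by symbol, with earlier results of these data known. This gave 38 genes of 20245 in the deposited tables. They fell into 5 pump subunits enriched in intercalated cells, 16 broadly expressed subunits and accessory proteins, 4 other Atp6v entries, and 13 intercalated cell transporters, enzymes, receptors and regulators. The 8 libraries were made from poly(A) RNA of C57BL/6 kidneys and form 4 groups of 2. WT_DMSO (wild type) and PKD_DMSO (a mouse model of autosomal dominant polycystic kidney disease) received vehicle, and WT_FP and PKD_FP received flavopiridol, an inhibitor of cyclin-dependent kinases. The sources used here do not give the mutated gene, how it was mutated, the dose and duration of the drug, or the age and sex of the mice. Whether each library came from its own animal is not stated, and p-values therefore reflect the spread between libraries only, which may be technical.

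Intercalated cells secrete acid or base into the collecting duct. Type A cells place the V-ATPase in the apical membrane and the chloride-bicarbonate exchanger AE1 (Slc4a1) in the basolateral membrane, whereas type B cells carry the apical exchanger pendrin (Slc26a4). The pump has a cytosolic V1 sector that hydrolyses ATP and a membrane V0 sector that moves protons. Most subunits are shared by lysosomes and endosomes of all cells, but B1, C2, G3, a4 and d2 replace their common counterparts in the plasma membrane pump of intercalated cells. Subunits a4 and B1 also occur in other tubule segments, a4 in the proximal tubule among them, and d2 also occurs in macrophages and osteoclasts.

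Values were FPKM, that is, reads or fragments scaled to transcript length and to the library's mapped total, so levels can be compared between genes. The sum over all genes ranged from 486060 to 572823 per library, and without read depths no counting error can be attached to them. Of the 38 genes, 37 had at least 1 FPKM in at least 2 libraries and were tested. The exception was Atp6v1e2, a testis subunit listed at 0 in 7 libraries and at 0.06 FPKM in WT_DMSO replicate 2. Tests used limma on log2(FPKM + 1) over all 14391 genes that met the same filter, in a single model of the 4 groups, with Benjamini-Hochberg adjustment and a threshold of 0.05, and fold changes are on that log2 scale.

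In vehicle-treated kidneys, the intercalated-enriched subunits did not move as a block. Atp6v1c2 and Atp6v1g3 fell in PKD_DMSO, whereas Atp6v1b1, Atp6v0a4 and Atp6v0d2 did not pass the test. Among the 13 intercalated cell genes 9 fell, and among the 16 broadly expressed genes 3 fell, by smaller amounts. Of all 37 genes tested, 15 were lower and 0 higher (limma with Benjamini-Hochberg), and 19 were lower and 0 higher at an unadjusted p under 0.05. Over all genes, 7.52% were called lower and 14.8% higher in this comparison. At an unadjusted p under 0.05, 1890 of all 14391 genes were lower and 3583 higher. Both PKD_DMSO libraries were below both WT_DMSO libraries for 24 of the 37 genes and above for 1, beside 24.5% and 41.2% of all genes. The 15 became 4 without PKD_DMSO replicate 2, 6 without WT_DMSO replicate 1, 7 without WT_DMSO replicate 2, and 9 when the 2 groups were fitted alone. Lower calls over all genes fell in these fits as well, to 707 with the 2 groups alone, against 1082 in the main fit. Less RNA per cell and fewer cells of a type cannot be told apart in RNA of whole kidney. The plot of fold changes by gene class shows all 37 genes.

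**Figure D1:**
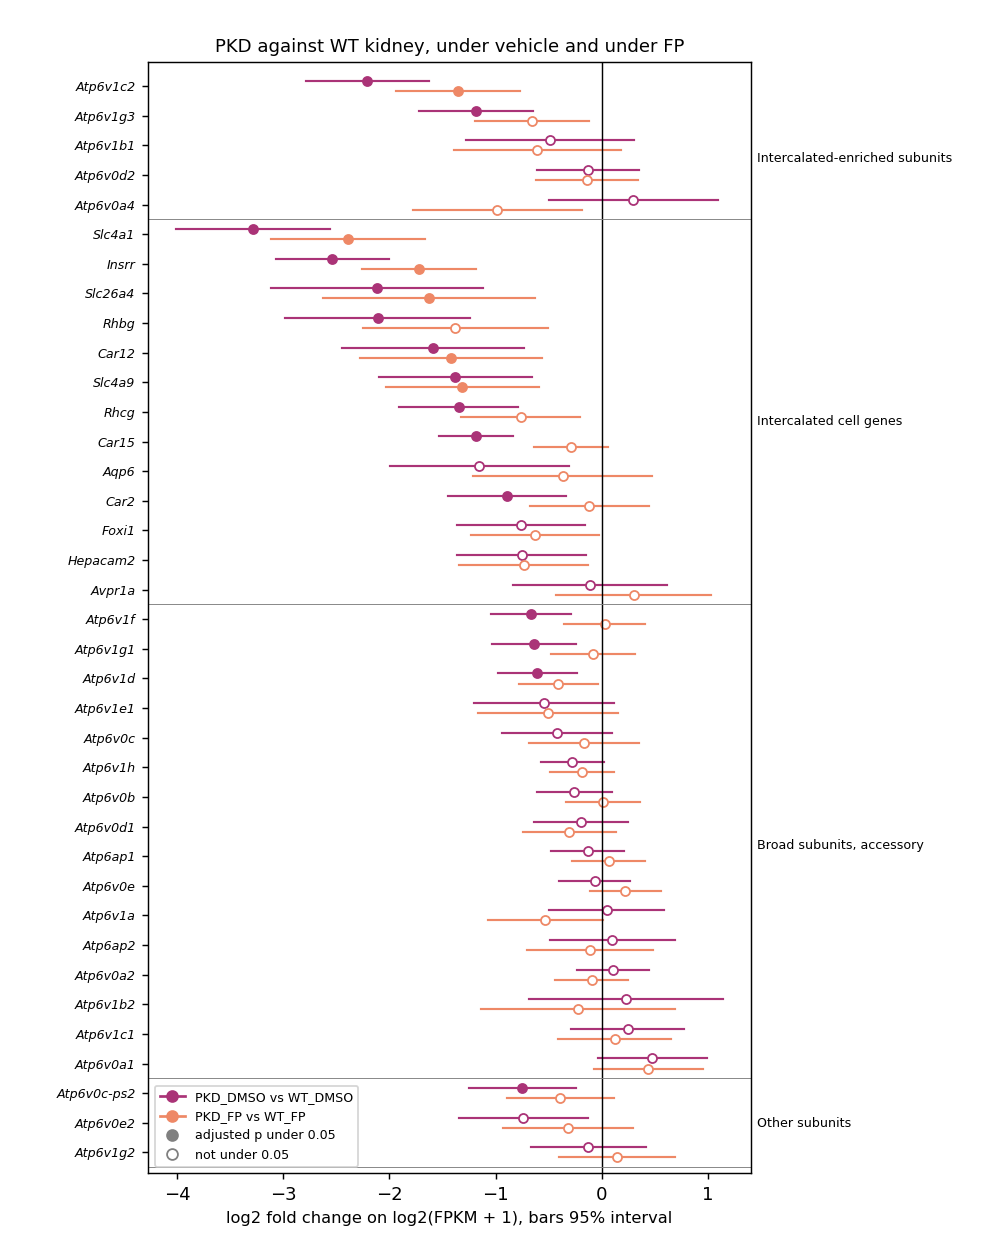
Log2 fold change (x axis, on log2(FPKM + 1)) of each of the 37 genes in PKD against WT kidney under vehicle and under flavopiridol (FP), grouped by class, with 95% intervals from limma over 8 libraries. Filled points have an adjusted p under 0.05. Slc4a1 lies farthest left at −3.29 and −2.39, while most broadly expressed subunits lie near 0.

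Atp6v1c2 (GRCm38 chromosome 12, 17284721 to 17325386) encodes C2, a stator subunit that joins V1 to V0. It stood at 37.51 and 33.33 FPKM in WT_DMSO, 39.41 and 40.71 in WT_FP, 9.28 and 5.03 in PKD_DMSO, and 14.97 and 15.17 in PKD_FP. All 4 PKD libraries were below all 4 WT libraries, and PKD_FP stood between PKD_DMSO and WT. Group means were 35.4 ± 2.96 FPKM (SD, n = 2) in WT_DMSO and 7.16 ± 3.01 in PKD_DMSO. Atp6v1c2 fell by 2.21 ± 0.24 (log2, SE), with an adjusted p of 0.00355 by limma. The call held in all 16 alternatives, where the log2 fold change ranged from −2.59 to −1.82 and the adjusted p from 0.00193 to 0.0219.

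Atp6v1g3 (chromosome 1, 138273738 to 138289462), encoding the stator subunit G3, stood at 52.37 and 44.36 FPKM in WT_DMSO and 44.82 and 44.90 in WT_FP. It stood at 23.27 and 18.29 in PKD_DMSO and 34.72 and 22.82 in PKD_FP, and no PKD library reached a WT library. It fell by 1.19 ± 0.23 in PKD_DMSO (limma, adjusted p = 0.0149). The call was lost without WT_DMSO replicate 1 or without PKD_DMSO replicate 2, and adjusted p values lay between 0.00789 and 0.111 in the alternatives.

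The other 3 intercalated-enriched subunits did not pass the test. Atp6v1b1 (chromosome 6, 83743017 to 83758855) encodes B1, the nucleotide-binding subunit whose human counterpart is mutated in distal renal tubular acidosis with deafness. Atp6v1b1 stood at 53.57 and 71.57 FPKM in WT_DMSO and 54.32 and 35.50 in PKD_DMSO, so the groups overlapped. Its log2 fold change of −0.49 had a 95% interval of −1.28 to 0.30 (limma, adjusted p = 0.327). That interval includes the −1.19 of Atp6v1g3, so a different change of these 2 genes was not shown. Atp6v0d2 (chromosome 4, 19876838 to 19922566), encoding the coupling subunit d2, stayed between 18.74 and 27.19 FPKM in all 8 libraries. Its log2 fold change was −0.13 with an interval of −0.61 to 0.35, which excludes a 2-fold change.

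Atp6v0a4 (chromosome 6, 38048483 to 38124586) encodes a4, the V0 subunit that forms part of the proton path. It stood at 55.02 and 87.69 FPKM in WT_DMSO, 82.22 and 47.03 in WT_FP, 88.86 and 82.78 in PKD_DMSO, and 36.93 and 25.90 in PKD_FP. The PKD_DMSO libraries interleaved with the higher WT library of each treatment, and both PKD_FP libraries lay below every WT library. Its log2 fold change of 0.30 between PKD_DMSO and WT_DMSO had an interval of −0.50 to 1.10 (limma, adjusted p = 0.547) and ran from −0.03 to 0.63 when single libraries were left out. Atp6v0a4 therefore had a different order of groups from Atp6v1c2, whose lowest libraries were those of PKD_DMSO.

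**Figure D2:**
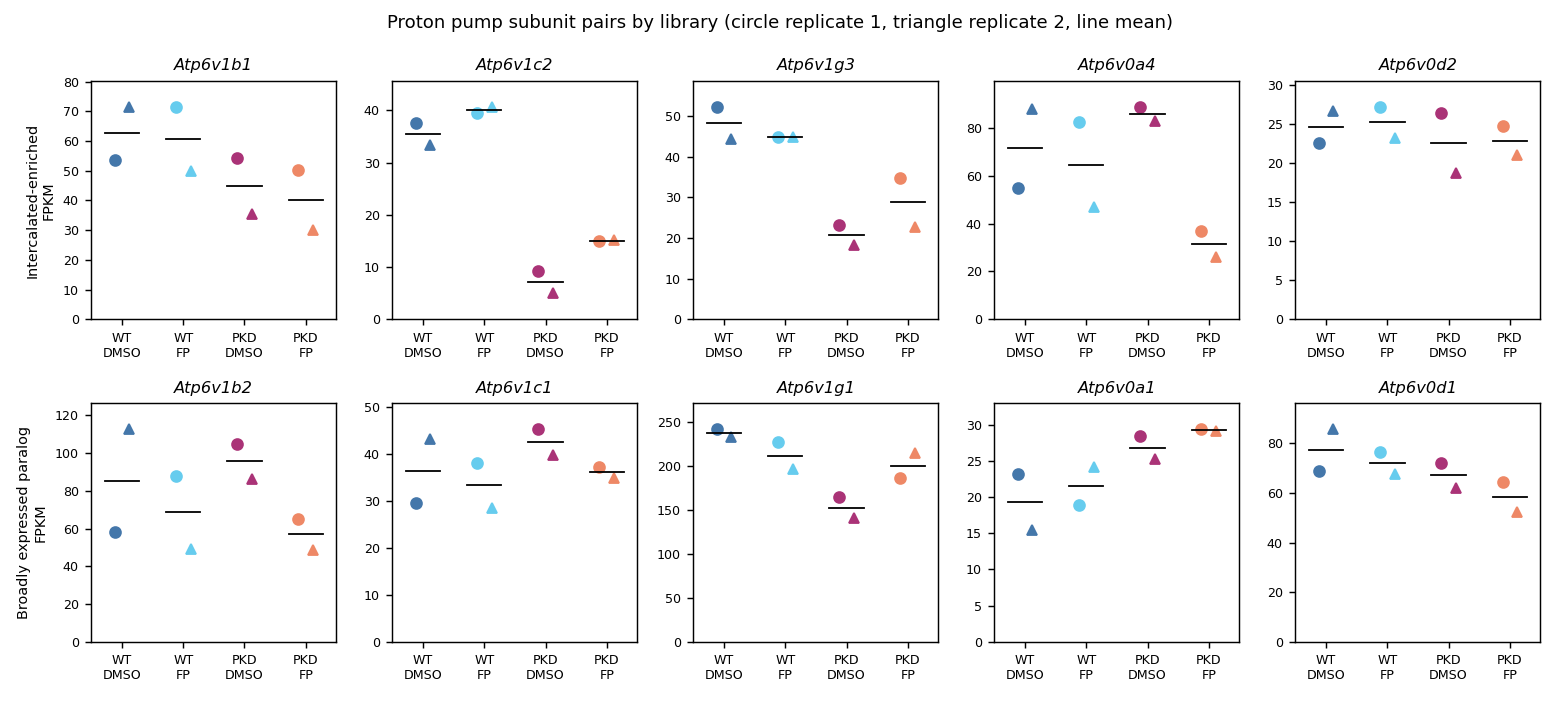
FPKM (y axis, from 0) of the 5 intercalated-enriched subunits (upper row) and their broadly expressed paralogs (lower row) in each of the 8 libraries, with the line at the mean of 2. Atp6v1c2 and Atp6v1g3 are lower in all 4 PKD libraries, and Atp6v0a4 is lowest in the 2 PKD_FP libraries (25.90 and 36.93).

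The exchangers of both intercalated cell types fell. Slc4a1 (chromosome 11, 102348820 to 102365281) stood at 22.48 and 15.61 FPKM in WT_DMSO, 19.85 and 29.97 in WT_FP, 1.17 and 0.88 in PKD_DMSO, and 2.89 and 5.05 in PKD_FP. Every PKD library was far below every WT library, and the change of −3.29 ± 0.31 in PKD_DMSO was the largest among the 37 genes (limma, adjusted p = 0.00211). AE1 is also the band 3 protein of red cells, and red cell transcripts were lower as well. Of 10 erythroid genes listed, 5 passed the filter (4 globins and Alas2) and all 5 were lower in PKD_DMSO, with a median log2 fold change of −2.85. Between PKD_FP and WT_FP their median was −0.79, beside −2.39 for Slc4a1. The summed level of the 10 genes was 1686 to 1842 FPKM in WT_DMSO, 1583 to 1708 in WT_FP, 204 to 286 in PKD_DMSO and 951 to 972 in PKD_FP. Alas2, the erythroid enzyme of heme synthesis, averaged 5.09 ± 0.976 FPKM in WT_DMSO and 0.97 ± 0.297 in PKD_DMSO, while the red cell membrane genes Epb42 and Rhag stayed near or under 1 FPKM in all libraries. The part of red cell RNA in the Slc4a1 result was not tested.

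Slc26a4 (chromosome 12, 31519814 to 31560055), which encodes pendrin, stood at 29.09 and 40.43 FPKM in WT_DMSO and 10.38 and 4.82 in PKD_DMSO. The groups did not overlap, and the change was −2.12 ± 0.42 (limma, adjusted p = 0.0170). Slc4a9, which encodes the basolateral exchanger AE4 of type B cells, stood at 67.68 and 49.40 against 30.19 and 15.42 FPKM, a change of −1.38 ± 0.30 (limma, adjusted p = 0.0230). Insrr (chromosome 3, 87796908 to 87816101) encodes the insulin receptor-related receptor, a sensor of alkaline pH. It stood at 19.06 and 15.56 FPKM in WT_DMSO and 2.85 and 1.56 in PKD_DMSO, a change of −2.54 ± 0.23 (limma, adjusted p = 0.00196). The calls of Slc4a1 and Insrr in PKD_DMSO held in all 16 alternatives. The Slc26a4 call ended without WT_DMSO replicate 2 or PKD_DMSO replicate 2, with adjusted p up to 0.106. The Slc4a9 call ended without WT_DMSO replicate 1 or PKD_DMSO replicate 2 and in the fit of the 2 groups alone, with adjusted p up to 0.0942.

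Both ammonia transporters of the collecting duct fell. Rhbg (chromosome 3, 88242874 to 88254739), the basolateral member, stood at 30.48 and 42.86 FPKM in WT_DMSO and 10.18 and 5.61 in PKD_DMSO, a change of −2.11 ± 0.37 (limma, adjusted p = 0.0117). Rhcg (chromosome 7, 79593363 to 79617657), found in the apical membrane, stood at 108.49 and 102.36 against 48.19 and 34.53 FPKM, a change of −1.35 ± 0.24 (limma, adjusted p = 0.0119). For both genes all 4 PKD libraries were below all 4 WT libraries. Without PKD_DMSO replicate 2 both calls ended, as did Rhbg's without WT_DMSO replicate 2 and Rhcg's without WT_DMSO replicate 1, with adjusted p up to 0.0835 and 0.0894.

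The carbonic anhydrases, which make bicarbonate and protons from carbon dioxide, also fell in PKD_DMSO. Car15 (chromosome 16, 17835276 to 17838186), a membrane-bound form, stood at 193.5 and 175.93 FPKM in WT_DMSO and 85.51 and 75.95 in PKD_DMSO, a change of −1.19 ± 0.15 that held in all 16 alternatives (limma, adjusted p = 0.00451). Car12 (chromosome 9, 66712296 to 66766845), a transmembrane form, stood at 68.13 and 96.38 against 30.56 and 22.54 FPKM, a change of −1.59 ± 0.36 (limma, adjusted p = 0.0249). Car2 (chromosome 3, 14886269 to 14900770), the cytosolic form, stood at 206.65 and 247.83 against 134.32 and 109.84 FPKM, a change of −0.89 ± 0.24 (limma, adjusted p = 0.0386). Car2 is also made in red cells and other tubule cells. The Car2 call was lost in 11 of 16 alternatives, both rescaled fits among them, with adjusted p up to 0.219, and the Car12 call without each of the 4 vehicle libraries, with adjusted p up to 0.156.

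The remaining 4 intercalated cell genes did not pass the test. Foxi1 (chromosome 11, 34204341 to 34208089), the forkhead factor required for intercalated cells, stood at 24.37 and 22.72 FPKM in WT_DMSO and 18.18 and 9.88 in PKD_DMSO, with a log2 difference of −0.76 (limma, adjusted p = 0.0724). The adhesion protein gene Hepacam2 stood at 7.23 and 10.32 against 5.68 and 3.90 FPKM, a log2 difference of −0.75 (adjusted p = 0.0757 by limma). For both genes all 4 PKD libraries lay below all 4 WT libraries, although neither passed the threshold. Aqp6, an aquaporin of intracellular vesicles in type A cells, stood at 53.70 and 39.64 against 27.87 and 14.58 FPKM, a log2 difference of −1.15 (limma, adjusted p = 0.0596). Foxi1 passed after quantile normalization (−0.91) and Aqp6 after median-of-ratios scaling (−1.31), and both passed without PKD_DMSO replicate 1 (−1.17 and −1.60). Without PKD_DMSO replicate 2 the differences were −0.355 for Foxi1 and −0.71 for Aqp6 (adjusted p = 0.285 and 0.299 by limma). Avpr1a, the V1a vasopressin receptor, was low, at 2.44 to 5.04 FPKM over the 8 libraries, and its difference of −0.11 had an interval of −0.84 to 0.62.

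**Figure D3:**
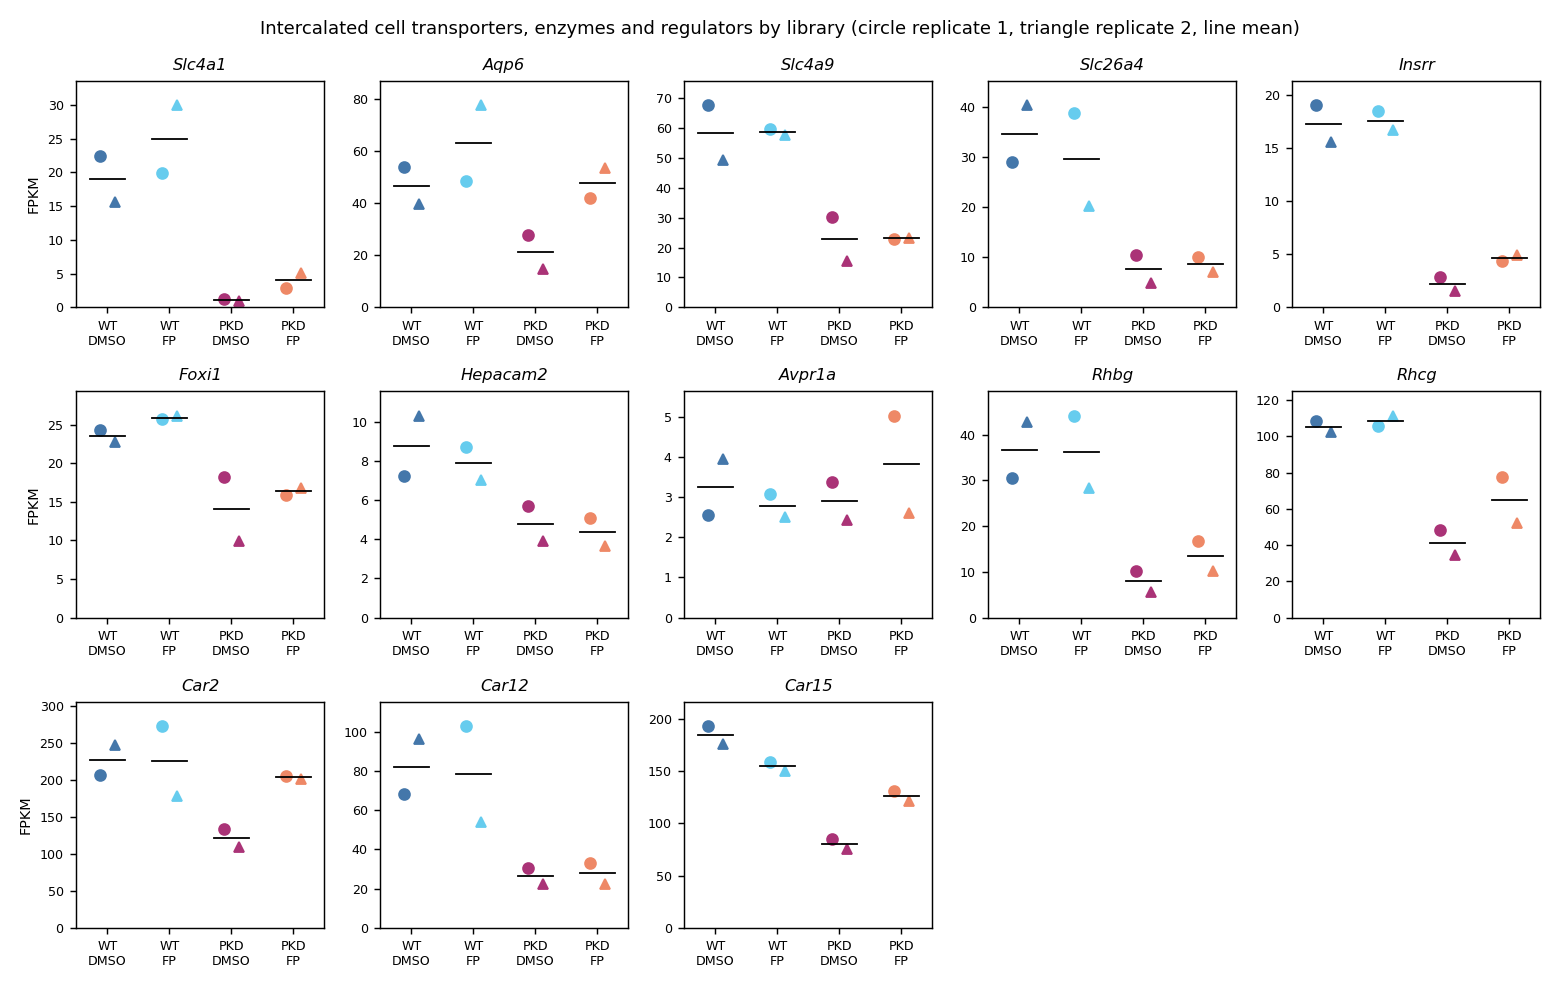
FPKM (y axis, from 0) of the 13 intercalated cell genes in each of the 8 libraries, with the line at the mean of 2. In 10 of the 13 panels the 4 PKD libraries lie below the 4 WT libraries, the exceptions being Aqp6, Avpr1a and Car2.

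The 16 broadly expressed genes encode pump subunits and accessory proteins that are not limited to intercalated cells. In PKD_DMSO their median log2 fold change was −0.16, beside −1.35 for the 13 intercalated cell genes and 0.12 for all 14391 genes. The median of the 16 was −0.069 without WT_DMSO replicate 2 and −0.095 without PKD_DMSO replicate 2. The 95% interval lay within a 2-fold change for 12 of the 16. Atp6v1f, encoding the rotor subunit F, was the most abundant of them at 451.13 and 416.44 FPKM in WT_DMSO, and fell to 302.59 and 246.13 in PKD_DMSO, by 0.67 ± 0.16 (limma, adjusted p = 0.0294). Atp6v1g1, encoding the stator subunit G1, stood at 242.21 and 232.94 against 164.92 and 140.35 FPKM and fell by 0.64 ± 0.17 (limma, adjusted p = 0.0368). Atp6v1d, encoding the rotor subunit D, stood at 95.22 and 108.27 against 70.63 and 62.38 FPKM and fell by 0.61 ± 0.16 (limma, adjusted p = 0.0364). All 3 called genes encode V1 subunits. The calls of Atp6v1f and Atp6v1g1 ended after quantile normalization, with −0.31 and −0.29, and all 3 calls ended without each of the 4 vehicle libraries in turn.

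The remaining broad subunits showed no called change. Atp6v1a, the ATP-hydrolysing subunit A, stood at 63.19 and 87.32 FPKM in WT_DMSO and 76.77 and 76.94 in PKD_DMSO. Atp6v0b and Atp6v0c, which encode proteolipids of the proton-carrying ring, averaged 199 ± 9.74 and 101 ± 12.9 FPKM in WT_DMSO and 167 ± 17.1 and 75.5 ± 10.5 in PKD_DMSO. Atp6v1e1, encoding a stator subunit, stood at 178.7 and 255.06 against 156.62 and 136.37 FPKM, and Atp6v1h, encoding the regulatory subunit H, at 64.03 and 63.61 against 51.41 and 53.73. Atp6v0a2, a form of subunit a found in the Golgi, stayed between 11.65 and 14.78 FPKM and Atp6v0e between 140.88 and 187.37 in all 8 libraries. The accessory genes Atp6ap1 (Ac45) and Atp6ap2 (the prorenin receptor) had log2 differences of −0.13 and 0.10, with the sign of Atp6ap1 turning after quantile normalization (0.03) and that of Atp6ap2 after median-of-ratios scaling (−0.06). Atp6v0a1, encoding the a1 form of subunit a, was the only one of the 37 genes with all 4 PKD libraries (25.27 to 29.41 FPKM) above all 4 WT libraries (15.43 to 24.12), but its difference of 0.48 did not pass (limma, adjusted p = 0.156). Over all genes 22.0% had all PKD libraries above all WT libraries and 11.7% all below, against 1 and 15 of these 37. Scaling moved the median of all genes from 0.12 to −0.01 by either method, and the median of the 16 became −0.32 after median-of-ratios scaling and −0.02 after quantile normalization.

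Among the other Atp6v entries, Atp6v0c-ps2 (chromosome 6, 37805975 to 37807107), annotated as a transcribed pseudogene of the ring subunit gene, was listed at 516 ± 62.8 FPKM in WT_DMSO and 309 ± 62.4 in PKD_DMSO. Reads of Atp6v0c and of this near-copy can be exchanged in counting, so the values of both are uncertain, and its call (−0.75; limma, adjusted p = 0.0464) was lost in 13 of 16 alternatives. Atp6v0e2, a minor form of the e subunit, stood at 27.2 ± 6.70 against 15.7 ± 0.926 FPKM, a log2 difference of −0.74 (limma, adjusted p = 0.0826). Atp6v1g2, the neural G subunit, stayed between 3.41 and 6.20 FPKM in all libraries.

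Promoter sequences (250 bases before to 50 after the gene start, RefSeq, GRCm38.p6) were found for 26 of the 38 genes. A core of the lysosomal E-box bound by TFEB and related factors, TCACGTGA on either strand, was in 3 of 11 broad genes with a promoter (Atp6v0d1, Atp6v0e and Atp6v1a), in 0 of 4 intercalated-enriched subunit genes and in 0 of 8 intercalated cell genes. It was in 0.974% of all 32851 promoter entries. Here and below the shares count entries, while a gene was counted if any of its entries matched, so they are unlike units. The shorter E-box CACGTG, which the core contains, was in 4 of the 11 broad genes, 0 of the 4 intercalated-enriched subunit genes, 1 of the 8 intercalated cell genes (Aqp6) and 7.15% of all entries, and Atp6v0b held it 2 times. The forkhead sequence TGTTTAC on either strand was in Atp6v1b1 alone among the 26 genes and in 3.65% of all entries. The stretches below show the matched letters in capitals, written 5′ to 3′ on the gene's strand, because they show matches near the start of 4 pump genes, broad and intercalated-enriched. A match describes letters only, and binding was not measured.
Atp6v0d1, chr8:105566061-105566092, minus strand: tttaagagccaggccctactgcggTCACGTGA
Atp6v0e, chr17:26676374-26676405, plus strand: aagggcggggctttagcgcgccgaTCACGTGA
Atp6v0b, chr4:117887336-117887389, minus strand: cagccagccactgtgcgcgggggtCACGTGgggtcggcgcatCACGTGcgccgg
Atp6v1b1, chr6:83742895-83742949, plus strand: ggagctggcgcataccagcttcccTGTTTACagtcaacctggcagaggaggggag

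The broad paralogs of the 5 intercalated-enriched subunits had the following levels. Atp6v1b2 (B2) stood at 57.97 and 112.77 FPKM in WT_DMSO, 87.73 and 49.43 in WT_FP, 104.83 and 86.25 in PKD_DMSO, and 65.13 and 48.65 in PKD_FP, and PKD_FP did not overlap PKD_DMSO. Atp6v1c1 (C1) stood at 29.44 and 43.15 in WT_DMSO, 38.11 and 28.56 in WT_FP, 45.27 and 39.73 in PKD_DMSO, and 37.21 and 34.83 in PKD_FP, with log2 differences between genotypes of 0.24 under vehicle and 0.12 under flavopiridol. Atp6v1g1 stood at 227.69 and 196.19 in WT_FP and 186.19 and 214.56 in PKD_FP. Atp6v0a1 stood at 23.22 and 15.43 in WT_DMSO, 18.9 and 24.12 in WT_FP, 28.37 and 25.27 in PKD_DMSO, and 29.41 and 29.17 in PKD_FP. Atp6v0d1 (d1) stood at 68.71 and 85.75, 76.57 and 67.58, 72.13 and 61.94, and 64.46 and 52.36 in the same order of groups. None of B2, C1, a1 and d1 passed the test in either comparison of genotypes.

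The intercalated-enriched subunits were then set against their broad paralogs within each library, as the difference of log2(FPKM + 1), which does not depend on scaling between libraries beyond the 1 FPKM added. As a share of the summed FPKM of C2 and C1, Atp6v1c2 made up 43.6% to 58.8% in the 4 WT libraries, 17.0% and 11.2% in PKD_DMSO, and 28.7% and 30.3% in PKD_FP. The log2 difference was 0.13 ± 0.38 (SD, n = 4) in WT and −1.83 ± 0.77 in PKD, a PKD minus WT difference of −1.96 with no overlap. Atp6v1g3 made up 16.0% to 18.6% of G3 and G1 in WT and 9.61% to 15.7% in PKD, a PKD minus WT log2 difference of −0.56, also with no overlap. Each of these differences had a two-sided exact permutation p of 0.0286, the smallest that 4 against 4 libraries can give. After Benjamini-Hochberg adjustment over the 5 pairs it was 0.0714, which did not pass. With only these pairs separated, the adjusted p could not have been lower, so this outcome does not decide whether the ratios differed.

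For the B subunits the order was the same but the libraries overlapped. Atp6v1b1 made up 38.8% to 50.2% of B1 and B2 in WT, 34.1% and 29.2% in PKD_DMSO, and 43.5% and 38.3% in PKD_FP, with a PKD minus WT log2 difference of −0.55 (exact permutation p = 0.0571, adjusted 0.0952). Atp6v0a4 made up 66.1% to 85.0% of a4 and a1 in WT, 75.8% and 76.6% in PKD_DMSO, and 55.7% and 47.0% in PKD_FP, so that only PKD_FP lay below WT (difference −0.80, exact permutation p = 0.229, adjusted 0.257). This difference was −0.18 under DMSO and −1.42 under FP. Atp6v0d2 made up 23.2% to 28.6% of d2 and d1 in all 8 libraries (difference 0.12, exact permutation p = 0.257, adjusted 0.257). The C pair had the largest of the 5 differences. None of the 5 passed after adjustment, which the C and G pairs could not have done without a further fully separated pair.

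**Figure D4:**
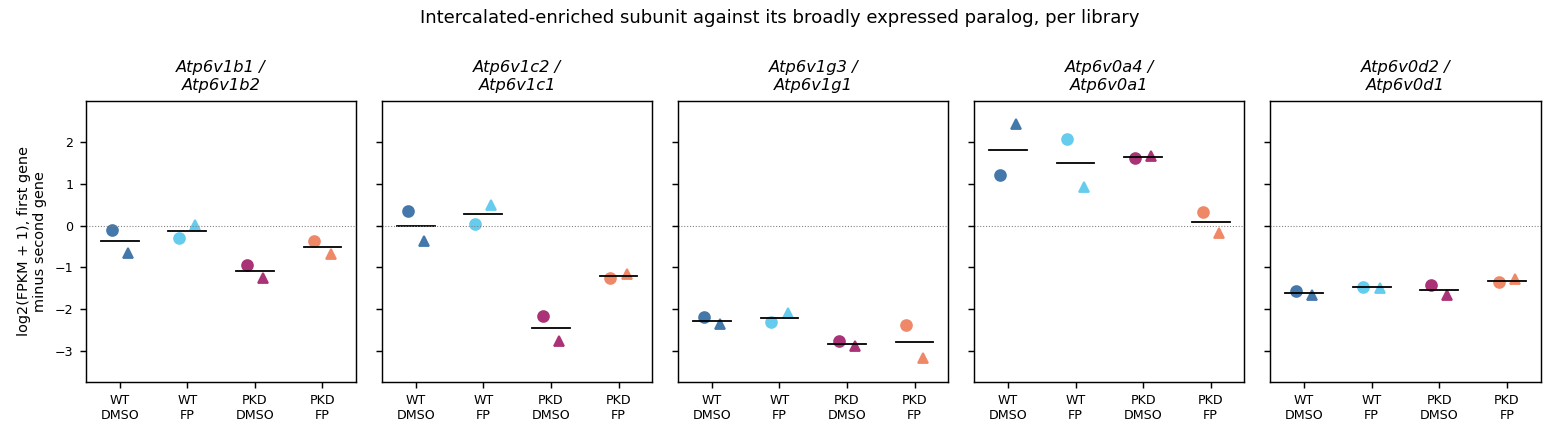
Difference of log2(FPKM + 1) between each intercalated-enriched subunit and its broad paralog (y axis) in each of the 8 libraries, with the line at the mean of 2. For Atp6v1c2 against Atp6v1c1 the 4 PKD libraries lie between −2.76 and −1.15 and the 4 WT libraries between −0.36 and 0.50.

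Under flavopiridol, PKD and WT kidneys were compared in 4 other libraries, which share only the estimate of spread with the vehicle comparison. Of the 37 genes 6 were lower and 0 higher (limma with Benjamini-Hochberg), and 13 were lower and 0 higher at an unadjusted p under 0.05. Over all genes 5.23% were called lower and 8.71% higher. At an unadjusted p under 0.05, 1797 of all 14391 genes were lower and 2723 higher. The 6 became 3 with no filter on low values and 1 without WT_FP replicate 1, without PKD_FP replicate 1 or without PKD_FP replicate 2. Lower calls over all genes fell in these fits as well, from 753 of 14391 to 554 of 20240 with no filter. Both PKD_FP libraries were below both WT_FP libraries for 19 of the 37 and above for 3, beside 25.2% and 34.6% of all genes. The called genes were Slc4a1 (−2.39), Insrr (−1.72), Slc26a4 (−1.63), Car12 (−1.42), Atp6v1c2 (−1.35) and Slc4a9 (−1.31), and all 6 had also been called lower under vehicle. Genes called lower in both comparisons made up 3.11% of all genes. Without a threshold, 24 of the 37 were lower in both and 2 higher in both, beside 30.0% and 43.3% of all genes.

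The drug groups stood apart by values as follows. Slc26a4 was 38.95 and 20.35 FPKM in WT_FP and 10.15 and 7 in PKD_FP, and Insrr 18.50 and 16.73 against 4.38 and 4.90. Slc4a9 was 59.73 and 57.68 in WT_FP and 22.90 and 23.20 in PKD_FP, and Car12 103.2 and 54.18 against 33.17 and 22.43. The 2 groups did not overlap for any of these 4 genes. Rhbg was 44.22 and 28.31 in WT_FP and 16.69 and 10.1 in PKD_FP, Rhcg 105.83 and 111.53 against 77.68 and 52.05, and Car15 158.72 and 150.61 against 131.48 and 121.79. Foxi1 was 25.67 and 26.18 in WT_FP and 15.93 and 16.81 in PKD_FP, Hepacam2 8.71 and 7.05 against 5.07 and 3.65, Aqp6 48.63 and 77.54 against 42.02 and 53.36, and Car2 273.33 and 178.35 against 205.95 and 201.34. Aqp6 and Car2 overlapped between these groups. Rhbg (−1.38; adjusted p = 0.0525 by limma), Rhcg (−0.76; adjusted p = 0.0786) and Atp6v1g3 (−0.65; adjusted p = 0.103) had separate groups and did not pass. Atp6v0a4 was also lower with separate groups, 36.93 and 25.90 against 82.22 and 47.03 FPKM, a log2 difference of −0.98 (limma, adjusted p = 0.0993). Of the 16 broad genes 0 passed, the median was −0.10 (0.035 without WT_FP replicate 1, −0.21 without WT_FP replicate 2 and −0.036 without PKD_FP replicate 2), and 13 had an interval within a 2-fold change. The calls of Slc26a4 and Car12 were lost in 12 and 11 of 15 alternatives, with log2 differences of −2.08 to −1.18 and −1.88 to −0.96. Those of Slc4a9, Atp6v1c2 and Insrr were lost in 5, 4 and 3 alternatives, and that of Slc4a1 in none. The Atp6v1c2 call ended without each of the 4 flavopiridol libraries in turn.

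Flavopiridol against vehicle in PKD kidneys gave 0 calls among the 37 genes (limma with Benjamini-Hochberg), while 10 had an unadjusted p under 0.05, 8 of them higher and 2 lower. Over all genes 0.00695% were called in each direction. At an unadjusted p under 0.05, 1488 of all 14391 genes were higher and 1316 lower. The 13 intercalated cell genes had a median log2 difference of 0.63 beside 0.04 for all genes, and 12 of them had a positive value. That median was 0.33 without PKD_DMSO replicate 2 and 0.34 without PKD_FP replicate 1. Both PKD_FP libraries were above both PKD_DMSO libraries for 14 of the 37 genes and below for 5, beside 31.4% and 25.2% of all genes, and for 6 and 0 of the 13 intercalated cell genes. Car15 was 85.51 and 75.95 FPKM in PKD_DMSO and 131.48 and 121.79 in PKD_FP (difference 0.64; adjusted p = 0.125 by limma). Car2 was 134.32 and 109.84 against 205.95 and 201.34 (0.74; adjusted p = 0.174), and Aqp6 27.87 and 14.58 against 42.02 and 53.36 (1.19; adjusted p = 0.162). Slc4a1 (1.26), Atp6v1c2 (1.03) and Insrr (0.84) were of the same sign with adjusted p from 0.126 to 0.146. The exchangers of type B cells, Slc26a4 (0.21) and Slc4a9 (0.09), had overlapping groups.

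Against this direction, Atp6v0a4 was 88.86 and 82.78 FPKM in PKD_DMSO and 36.93 and 25.90 in PKD_FP, a log2 difference of −1.44 with a 95% interval of −2.24 to −0.64 (limma, adjusted p = 0.125). Atp6v1a was 76.77 and 76.94 against 52.32 and 40.58 FPKM (−0.73; adjusted p = 0.170), and Atp6v1b2, the common B subunit, 104.83 and 86.25 against 65.13 and 48.65 (−0.75; adjusted p = 0.337). Atp6v1f was 302.59 and 246.13 against 415.72 and 394.56 (0.57; adjusted p = 0.151). The pump subunits thus had values in both directions, and none passed the threshold.

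**Figure D5:**
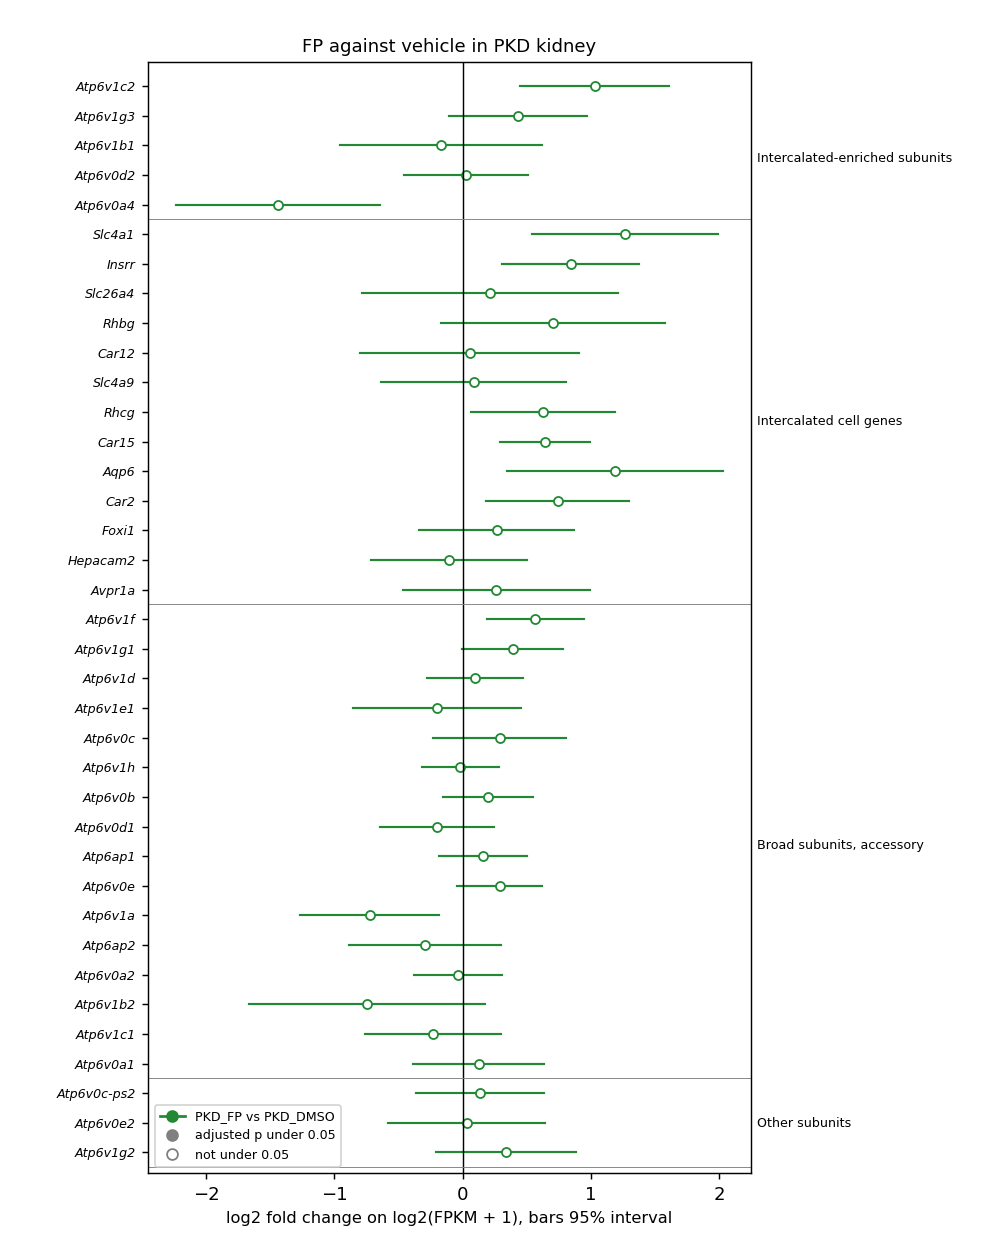
Log2 difference (x axis, on log2(FPKM + 1)) of each of the 37 genes in PKD_FP against PKD_DMSO, grouped by class, with 95% intervals from limma over 8 libraries. No point is filled, since no adjusted p was under 0.05. Atp6v0a4 lies farthest left at −1.44 and Slc4a1 farthest right at 1.26.

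Markers of other cells had the following values in this comparison. The erythroid genes had 1 of 5 tested members higher in PKD_FP and a median of 1.99. Principal cell markers had 0 of 9 called and a median of 0.70, thick limb and distal convoluted tubule markers 0 of 8 and 0.68, and proximal tubule markers 0 of 13 and −0.62. The summed level of the principal cell markers was 663 to 742 FPKM in PKD_DMSO and 1055 to 1422 in PKD_FP. Their part in the values of Slc4a1, Aqp6 and Atp6v0a4 was not tested.

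In WT kidneys flavopiridol against vehicle gave 0 calls among the 37 genes (limma with Benjamini-Hochberg), beside 0.00% of all genes called. An unadjusted p under 0.05 was found for 0 of the 37 genes and 183 of all 14391 genes. Both WT_FP libraries were above both WT_DMSO libraries for 3 genes and below for 4, beside 16.6% and 5.32% of all genes. Values ran from −0.39 (Atp6v0e2) to 0.41 (Aqp6), and the interval lay within a 2-fold change for 15 of 16 broad genes, 5 of 5 intercalated-enriched subunits and 10 of 13 intercalated cell genes. The interaction asks whether the response to the drug differed between genotypes. It also gave 0 calls among the 37 genes, beside 0.00% of all genes called. At an unadjusted p under 0.05 it gave 5 of the 37 genes and 1616 of all 14391 genes. Its smallest p among the 37 belonged to Car15 (0.90; limma, adjusted p = 0.384), followed by Atp6v1f (0.69; adjusted p = 0.406) and Atp6v0a4 (−1.28; adjusted p = 0.421). A difference in drug response between genotypes was therefore not shown for any of these genes.

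Further genes of acid-base handling gave a mixed picture in PKD_DMSO against WT_DMSO. Of 15 other intercalated cell genes 12 were tested, 2 fell and 0 rose, with a median of −0.53. These were Bsnd, the barttin subunit of chloride channels (−1.44 ± 0.21; limma, adjusted p = 0.00720), and the homeobox gene Hmx2 (−1.40 ± 0.23; limma, adjusted p = 0.00939). Tfcp2l1, a transcription factor of the collecting duct, was not lower, at 38.75 and 42.86 FPKM in WT_DMSO and 62.05 and 45.22 in PKD_DMSO. Of 10 tested genes of pump assembly and regulation 1 fell and 0 rose, a share near the 7.52% of all genes called lower. It was Rogdi, whose product belongs to the complex that rejoins V1 to V0, at 99.54 and 90.17 against 46.55 and 36.29 FPKM (−1.19 ± 0.18; limma, adjusted p = 0.00807), and it was also lower under flavopiridol (−0.71; limma, adjusted p = 0.0466). Tcirg1, the a3 subunit of osteoclasts and macrophages, stood at 23.83 and 12.21 against 17.59 and 23.34 FPKM.

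Of 18 lysosome genes 3 rose and 1 fell, with a median of 0.10, shares near the 14.8% higher and 7.52% lower of all genes. The protease gene Ctsd rose from 254 and 331 to 1114 and 1174 FPKM (1.98 ± 0.30; limma, adjusted p = 0.00822), Tfe3, a regulator of lysosomal genes, rose by 0.69 ± 0.16, and Hexa, a lysosomal enzyme gene, rose by 0.53 ± 0.13. Of 8 proximal acid-base genes 2 fell and 1 rose. The genes that fell were the carbonic anhydrase genes Car14 (−2.95 ± 0.44) and Car4 (−2.08 ± 0.34).

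Markers of other cells had the following values in the comparisons of genotypes. Principal cell markers, from the neighbouring cells of the collecting duct, had 0 of 9 called in PKD_DMSO and a median of −0.70. Proximal tubule markers had 5 of 13 lower and thick limb and distal convoluted tubule markers 5 of 8 lower. Of all genes, 7.52% were called lower and 14.8% higher. All 12 macrophage markers were higher, and their summed level was 82.5 to 131 FPKM in WT_DMSO and 770 to 1472 in PKD_DMSO, highest in PKD_DMSO replicate 2. That library had the lower value of its group for all 13 intercalated cell genes. It was also the lower one for every intercalated-enriched subunit and for most broad genes, the exceptions being Atp6v0a2, Atp6v0e, Atp6v1a and Atp6v1h. Its sum over all genes was the lowest of all libraries, 486060 FPKM against 508072 in PKD_DMSO replicate 1. The share of all genes that were lower in it was not counted, and a link to its macrophage level was not tested. Under flavopiridol 11 of 12 macrophage markers were higher. Lower were 6 of 13 proximal tubule, 4 of 8 thick limb and distal convoluted tubule, 2 of 5 erythroid and 0 of 9 principal cell markers. Of the thick limb and distal convoluted tubule markers 1 was higher. The shares of all genes were 5.23% lower and 8.71% higher. The summed macrophage level was 132 to 147 FPKM in WT_FP and 724 to 1042 in PKD_FP, and the summed erythroid level stood as given beside Slc4a1. The part of these cells in the genotype results, among them the levels of Atp6v0d2 and of the broad subunits that macrophages also make, was not tested.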

How the data were processed

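Gene-level values of 8 whole-kidney poly(A) RNA libraries were used as deposited by the authors. The deposited columns name no unit, and the values, which behave as ones the authors divided by library size and gene length before depositing them, were taken as FPKM because their product with transcript length summed to nearly the same total in every library (coefficient of variation 1.62%, against 5.65% for the plain sums). Bowtie2, DESeq2 and the mouse build mm10 are named, without versions or roles, in the submitters' processing notes. Counts were not used here, so depth is unknown and no count test was run. Entries of 2 repeated symbols (4 entries) and 1 entry without a symbol were left out.

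Genes with FPKM of at least 1 in at least 2 libraries were kept, and log2(FPKM + 1) was tested with limma 3.58.1 in R 4.3.3 (group means, intensity trend, robust variance) with Benjamini-Hochberg adjustment at 0.05. The procedure was tested on simulated data. Paralog differences were compared between 4 PKD and 4 WT libraries by exact permutation, since 2 against 2 libraries cannot give a p below 0.333. The vehicle comparison of genotypes and the drug comparison in PKD kidneys share the PKD_DMSO libraries. Alternatives were another filter, pseudocount, scaling, set of groups and replicate block, and each library left out. All 38 genes were described, by symbol, and from each other list up to 4 called genes with the largest change, and Tcirg1, could be named. Tfcp2l1, Alas2, the uncalled red cell genes, Aqp2 and Slc34a1 were named after their values were seen. Single values of some listed genes are not reported here. The genes and lists were chosen with earlier results of these data known. Coordinates and promoters are those of RefSeq on GRCm38.p6.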

Additional observations from a re-analysis of the deposited data

How the results depend on the processing

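For PKD_DMSO against WT_DMSO the count of lower genes, 15, was 9 when only the 2 groups were fitted and ran from 4 to 13 when each library was left out. For PKD_FP against WT_FP the count, 6, was 3 with no filter on low values and ran from 1 to 4 when each library was left out. Lower calls over all genes also fell in each of these fits. Among the genes of the set, the counts of higher genes, and both counts of the other 3 contrasts, were 0 in every alternative run. The calls of Atp6v1c2, Car15, Insrr and Slc4a1 under vehicle, and of Slc4a1 under flavopiridol, held in every alternative run. Over all genes the share of calls that were higher under vehicle was 66.3%, and 52.9% after median-of-ratios scaling and 52.8% after quantile normalization. Uncalled genes changed sign under vehicle after quantile normalization (Atp6ap1 0.029, Atp6v0a2 −0.064, Atp6v0b 0.081, Atp6v0e 0.19) and after median-of-ratios scaling (Atp6ap2 −0.056, Atp6v0a2 −0.042, Atp6v1a −0.11). Under flavopiridol they did so after median-of-ratios scaling (Atp6ap1 −0.037, Atp6v0b −0.092, Atp6v1f −0.0745). The causes were not tested.

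When each library was left out, log2 differences under vehicle ran from −0.21 to 0.41 for Atp6ap2, −0.032 to 0.63 for Atp6v0a4, −0.37 to 0.11 for Atp6v0d2, −0.18 to 0.28 for Atp6v1a, −0.24 to 0.70 for Atp6v1b2, −0.024 to 0.51 for Atp6v1c1, −0.29 to 0.041 for Atp6v1g2 and −0.35 to 0.13 for Avpr1a. Under flavopiridol they ran from −0.36 to 0.13 for Atp6ap2, −0.20 to 0.017 for Atp6v0a2, −0.0225 to 0.042 for Atp6v0b, −0.39 to 0.057 for Atp6v0c, −0.65 to 0.021 for Atp6v0e2, −0.63 to 0.18 for Atp6v1b2, −0.08 to 0.32 for Atp6v1c1, −0.0097 to 0.065 for Atp6v1f, −0.19 to 0.027 for Atp6v1g1, −0.058 to 0.35 for Atp6v1g2, −0.072 to 0.67 for Avpr1a and −0.42 to 0.19 for Car2. For the drug in PKD kidneys Atp6v1b1 ran from −0.53 to 0.19. The paralog tests cannot reach 0.05 with a library left out (smallest p 0.0571).

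With the replicate number as a block, 11 genes were lower under vehicle and 4 under flavopiridol, beside 785 and 437 of all 14391 genes. Same-numbered libraries deviated together in some pairs of groups and apart in others (correlations from −0.515 to 0.485), so they share only a number. With the numbers crossed, an alternative chosen after seeing the data, 21 were lower under vehicle. Lower calls over all genes rose as well, from 1082 to 1821 of 14391. The same fit gave 8 of 13 intercalated cell genes, 3 of 5 intercalated-enriched subunits and 2 of 16 broad genes lower under flavopiridol. Over all genes it gave 1498 lower, against 753 in the main fit. With the replicate block the smallest p of the paralog test is 0.125. Unknown depth leaves the precision of low genes such as Avpr1a and Slc4a1 in PKD_DMSO unmeasured.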

Other observations

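The 4 WT libraries did not order by treatment in these genes. WT_DMSO replicate 2 and WT_FP replicate 1 were both above the other 2 WT libraries in 20 of the 37 genes, against 18.0% of all genes, and both below in 6 (Aqp6, Atp6v0a1, Atp6v1g2, Atp6v1g3, Rhcg and Slc4a1), against 44.4% of all genes. Atp6v0a4 stood at 87.69 and 82.22 FPKM in these libraries and at 55.02 and 47.03 in the others. Aqp2, the principal cell water channel, stood at 535.72 and 386.41 FPKM in them and at 798.68 and 1343.91 in the others, and Slc34a1, the proximal tubule phosphate transporter, at 1879.08 and 1665.94 against 1309.68 and 769.13. The pattern was noticed after the values were seen and is given as a description.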
